A study of Danio rerio with 184 samples.

Results

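The cells described here are the lateral line hair cells in which pvalb8 made up a small share of all transcripts, set against the cells in which its share was large. A cell counted as low when pvalb8 held under 20% of its unique molecular identifiers (UMIs, each 1 captured transcript molecule) and as high at 20% or more, with spike-in transcripts left out of the total. The pvalb8 gene was taken as the Ensembl row with the most UMIs, 238467 in all, against 46286 in the next row, s100t. Of 184 cells, 182 had at least 1000 UMIs, and of these 40 were low and 142 were high. The sides were chosen from these same transcript counts, so every difference between them is a description and no test was made.

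All cells came from zebrafish larvae at 6 days post fertilization that carried the transgene Tg[myo6b:actb1-EGFP], in which the hair cell gene myo6b drives a fluorescent actin. Green cells were sorted from enzymatically dissociated trunks, 92 from larvae labelled Emx2-mutant and 92 from wild-type larvae, and each cell is a sample of its own with no animal or pool named. The mutant allele is not described, and the deposited counts do not check the label, since EMX2 UMIs were found in mutant-labelled cells (12 in low and 93 in high cells) as well as in wild-type cells (19 and 26). The labels do not name plates in words, and plates 2 and 4 are read here from the first digit of the well code in the titles. On each plate so read the mutant-labelled cells sat in columns 1 to 6 and the wild-type cells in columns 7 to 12. Genotype and position on the plate thus cannot be told apart. With no animals named, each genotype counts as 1 sample, and the intervals given below cover counting error alone.

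Hair cells of the lateral line sense water flow with a bundle of stereocilia beside a single kinocilium, and they release glutamate from ribbon synapses. They sit among support cells, which express keratins and Notch target genes and from which new hair cells arise. pvalb8 encodes an oncomodulin-like parvalbumin, a small soluble protein that buffers calcium and is a usual marker of these cells. Ribosomal proteins are the structural parts of the ribosome, and oxidative phosphorylation is the mitochondrial process that makes most of the ATP of a hair cell.

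The low side held 14 of 92 mutant-labelled cells, 15.22% with an exact binomial 95% interval of 8.58% to 24.2%, and 26 of 90 wild-type cells, 28.9% with an interval of 19.8% to 39.4%. Among mutant-labelled cells 6 of 46 on plate 2 and 8 of 46 on plate 4 were low, and in the wild type 13 of 46 on plate 2 and 13 of 44 on plate 4. The pvalb8 share ran from 9.70% through a median of 15.9% to 19.97% in low cells, and from 20.07% through 24.7% to 34.2% in high cells. The 3 cells just under the threshold had 19.05%, 19.09% and 19.97% of pvalb8, and the 3 just above it 20.07%, 20.10% and 20.33%. The shares ran on across the threshold without a gap, with 8 cells between 18% and 20% and 25 cells between 20% and 22%.

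**Figure D1:**
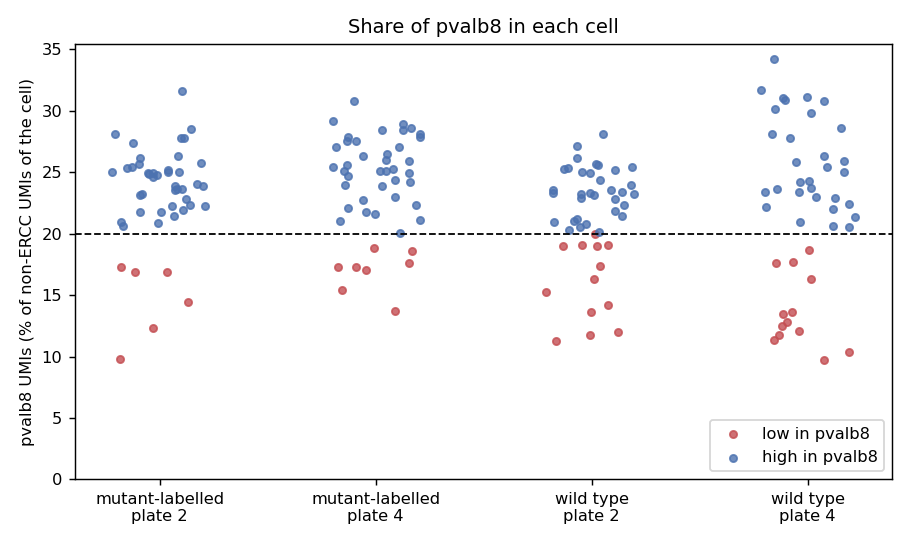
Each point is 1 cell, placed by genotype and plate along the horizontal axis and by its share of pvalb8 in percent of non-spike-in UMIs on the vertical axis, with the dashed line at 20%. Low cells are red and high cells blue, and wild-type cells on both plates reach below the line in larger numbers (13 and 13) than mutant-labelled cells (6 and 8).

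Low cells were not the shallow cells. Their UMIs ran from 1000 through a median of 6200 to 33325, against 1086, 4727 and 16780 in high cells. A low cell held a median of 888 pvalb8 UMIs, against 1247 in a high cell, and the ranges, 186 to 5437 and 229 to 3956, overlapped. The other transcripts, counted per spike-in UMI, had a median of 27.9 in low cells and 22 in high cells. After each cell was thinned to 1500 UMIs without pvalb8, low cells held a median of 689.5 genes and high cells 682. The deepest low cell, a wild-type cell on plate 2, gave 11.2% of all low UMIs.

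Both sides carried the marker genes of hair cells. All 40 low and all 142 high cells had UMIs of s100s, s100t, otoferlin (OTOF, ENSDARG00000020581) and the calcium pump gene ATP2B1. The 14 markers matched 18 rows. Of these, 10 had a UMI in at least 50% of the low cells and likewise in the high cells. The pvalb8 row, which set the sides, is among the 18 and among the 10. Rows below 50% on both sides included SLC17A8 (25% of low and 33.1% of high cells), POU4F3 (32.5% and 28.2%) and CDH23 (2.5% and 7.04%). MYO6 (ENSDARG00000042141) was found in 85% of low and 79.6% of high cells, and gfi1aa in 77.5% and 75.4%. Genes of several other cell types were scarce on both sides, but their lists matched few genes. The 5 matched leukocyte genes had 10 UMIs over all low cells and 9 over all high cells. The 4 matched pigment and endothelium genes had 9 and 7. As 0 genes of the erythroid list were matched, it gives no value. The 11 matched neuron and glia genes summed to 228.5 CPM in low and 280.5 CPM in high cells, where CPM means UMIs scaled to an equal total per side. The 4 matched ionocyte and mucous genes summed to 364.7 and 472.1 CPM. Of their UMIs, ATP6V1A (ENSDARG00000034534) held 90 of 91 in low and 279 of 281 in high cells. Muscle genes were not scarce. They summed to 2245 CPM in low cells and 2854 CPM in high cells, and atp2a1, a calcium pump of muscle, had a UMI in 36 of 40 low and 131 of 142 high cells. This gene alone held 281 of the 560 low and 820 of the 1699 high UMIs of the list. The parvalbumin gene pvalb1 had 11 UMIs in low and 61 in high cells, and GAPDH of this list is also in the glycolysis list. Of 13 muscle genes with at least 20 UMIs 10 were lower in low cells, where 57.6% of all such genes were. The part of muscle genes in other differences was not tested.

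To compare the sides across all other genes, UMIs were summed over the low and over the high cells, 249492 and 595262 without pvalb8, and scaled to CPM with pvalb8 and spike-ins left out of the total. Of 1131 genes with at least 100 UMIs, 133 (11.8%) were at least 1.5-fold higher and 209 (18.5%) at least 1.5-fold lower in low cells. The 4 combinations of genotype and plate were each compared within themselves, and 101 genes (8.93%) were higher and 226 (20%) lower in low cells in all 4. Of all genes with at least 20 UMIs, 42.4% were higher and 57.6% lower in low cells, 17.7% and 27% by at least 1.5-fold. Counts within the gene lists below are best read against these shares. Over genes with at least 20 UMIs, the median log2 ratio of low over high was -0.15, with a binomial 95% interval of -0.17 to -0.12. Keeping pvalb8 in the totals moved that median to 0.02 and turned the counts to 192 higher and 118 lower, so the medians of gene lists below are best read against the median of all genes. It was -0.38 among mutant-labelled and -0.11 among wild-type cells.

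Genes of the ribosome were higher in the low cells. Of 83 ribosomal protein genes 81 were measured, meaning at least 20 UMIs, and 77 of these were higher in low cells, where 42.4% of all genes with that many UMIs were. Their median log2 ratio was 0.59, with a binomial 95% interval of 0.53 to 0.67, which lay 0.74 above the median of all genes. At least 1.5-fold higher were 42 of the 81, against 17.7% of all such genes. In all 4 combinations of genotype and plate 28 were higher, against 4.24% of all such genes. Among genes with at least 100 UMIs these shares were 11.8% and 8.93%.

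In single cells, ribosomal protein genes took from 1.62% through a median of 6.79% to 12.4% of the UMIs in low cells, and from 2.99% through 4.39% to 9.20% in high cells. Most low cells lay in the upper part of that range: 27 of 40 low cells and 15 of 142 high cells exceeded 5.29%, the 90th percentile of high cells. rps20, a protein of the small subunit, ran from 0 through a median of 2177 to 7602 CPM in low cells and from 0 through 1397 to 4515 CPM in high cells. Its summed ratio was 1.56, with an exact 95% counting interval of 1.40 to 1.73. rplp2l, of the acidic stalk of the large subunit, had a median of 591.2 CPM in low and 311.8 CPM in high cells and a ratio of 2.55 (2.12 to 3.07). RPS25 and RPS26, also of the small subunit, had ratios of 2.62 (1.88 to 3.67) and 2.48 (1.77 to 3.48).

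The members with the most UMIs showed smaller ratios. rpl32 stood at 2685 CPM in low and 2162 CPM in high cells, a ratio of 1.24 (1.13 to 1.36), and RPS2 at 2309 and 1764 CPM, a ratio of 1.31 (1.18 to 1.45). Only 4 measured members were lower in low cells. They were RPS29, RPL22L1, rps27l and faub, named here after their values were seen, with log2 ratios of -0.07, -0.13, -0.32 and -0.90.

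The ribosomal difference was larger among wild-type cells. The median log2 ratio was 0.15 among mutant-labelled cells and 0.76 among wild-type cells, which is 0.53 and 0.87 above the median of all genes in each. Among mutant-labelled cells 5 of 14 low cells exceeded the 5.29% mark, with 7 of 78 high cells, and among wild-type cells 22 of 26 low cells did, with 8 of 64 high cells. A mutant-labelled low cell on plate 2, with 15696 UMIs and a pvalb8 share of 9.79%, had 45.7% of its UMIs in genes without a symbol, where the next low cell had 25.8%. It had the lowest ribosomal share of all low cells, 1.62%, and without it the median log2 ratio over all cells was 0.67. Its part in the result within mutant-labelled cells was not tested.

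**Figure D2:**
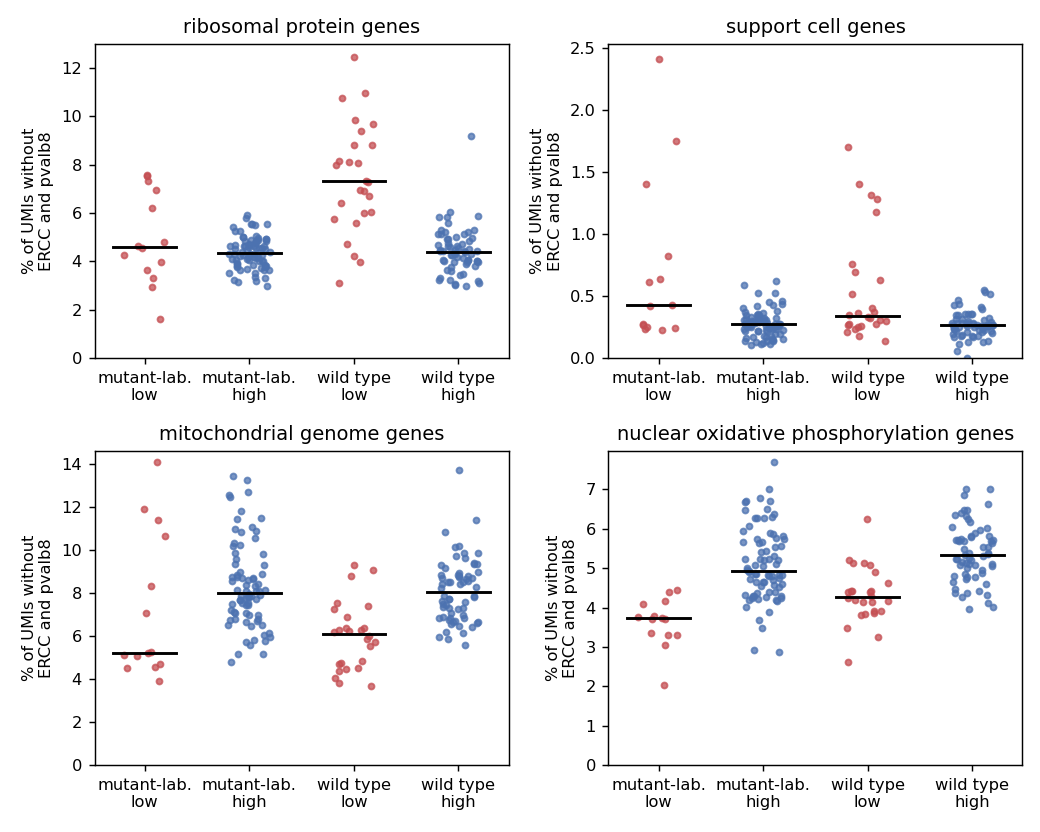
Each point is 1 cell and each line the median of its group, for ribosomal protein, support cell, mitochondrial genome and nuclear oxidative phosphorylation genes in percent of the cell's UMIs without spike-ins and pvalb8. Low cells (red) stand left of high cells (blue) within each genotype, and the medians of the ribosomal share are 4.58% and 4.36% among mutant-labelled cells and 7.30% and 4.396% among wild-type cells.

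Other genes of protein synthesis were mixed. Of 41 measured translation factor genes 23 were higher and 18 lower in low cells, with a median log2 ratio of 0.17 (-0.12 to 0.33). eef1a1l1, the elongation factor that brings charged tRNA to the ribosome, had a median of 2406 CPM in low and 1497 CPM in high cells and a ratio of 1.47 (1.33 to 1.62). Its relative EEF1A1 (ENSDARG00000069951) had a ratio of 0.51 (0.36 to 0.71) and EIF6, a factor of the large subunit, one of 0.31 (0.13 to 0.66). TPT1, a growth-linked protein, differed little, at 857.7 CPM in low and 952.5 CPM in high cells. Nucleolar genes, which build the ribosome, had 6 of 12 measured members higher and a median log2 ratio of 0.04 (-0.42 to 0.37). Ubiquitin and proteasome genes had 30 of 43 higher and a median of 0.18 (0.11 to 0.35). Beside the higher counts of these lists, 42.4% of all genes with at least 20 UMIs were higher.

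Transcripts for energy supply were lower in the low cells. The genes of the mitochondrial genome, 13808 UMIs in low and 46866 in high cells, had a summed ratio of 0.70 (0.69 to 0.72). Of 11 measured members 10 were lower, where 57.6% of all genes with at least 20 UMIs were. The summed ratio was 0.74 among mutant-labelled and 0.69 among wild-type cells. Against the median of all genes, these members had a median of -0.04 among mutant-labelled and of -0.39 among wild-type cells. Plates 2 and 4 stood at -0.03 and 0.16 in the former, and at -0.33 and -0.46 in the latter. On this measure the list lay below all genes mainly among wild-type cells. MT-CO2, a subunit of cytochrome c oxidase, ran from 13500 through a median of 22600 to 53250 CPM in low cells and from 17020 through 31810 to 56570 CPM in high cells. MT-CO1, of the same complex, had 2898 CPM in low and 5041 CPM in high cells, a ratio of 0.57 (0.53 to 0.62). MT-ATP6 of the ATP synthase had a ratio of 0.71 (0.68 to 0.73) and MT-CYB of complex III one of 0.72 (0.68 to 0.76). The mitochondrial share of a cell had a median of 5.95% in low and 8.04% in high cells, and 32 of 40 low cells lay below the median of the high cells. This share also went with depth, at a Spearman correlation with the UMIs of the cell of -0.67 over 40 low and -0.48 over 142 high cells, and the part of depth in the difference was not tested. After thinning to 1500 UMIs the summed ratio was 0.76.

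Nuclear genes of oxidative phosphorylation were lower too. Of 84 measured members 71 were lower in low cells, where 57.6% of all genes with at least 20 UMIs were. In all 4 combinations of genotype and plate 29 were lower, against 13.4% of such genes and 20% of those with at least 100 UMIs. Their median log2 ratio was -0.33 (-0.41 to -0.26), which lay 0.18 below the median of all genes. They took a median of 4.14% of the UMIs in low cells and 5.197% in high cells, and 39 of 40 low cells lay below the median of the high cells. At least 1.5-fold lower were 18 of the 84, against 27% of all genes with at least 20 UMIs and 18.5% of those with at least 100. At least 1.5-fold higher was 1, against 17.7% and 11.8%.

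COX7C and COX5B, nuclear subunits of cytochrome c oxidase, had the most UMIs. COX7C ran from 0 through a median of 2556 to 5138 CPM in low cells and from 0 through 3253 to 7839 CPM in high cells, and the ratios of COX7C and COX5B were 0.70 (0.64 to 0.76) and 0.78 (0.71 to 0.86). ATP5F1B, the catalytic subunit of the ATP synthase, had a ratio of 0.78 (0.70 to 0.86). The complex I subunits NDUFS1 and NDUFB2 had the lowest ratios among members with at least 50 UMIs, 0.37 (0.17 to 0.72) and 0.41 (0.22 to 0.71). The median of the list was -0.57 among mutant-labelled and -0.30 among wild-type cells, which is 0.20 and 0.19 below the median of all genes in each. Against that median, plates 2 and 4 stood at -0.01 and -0.22 among mutant-labelled cells and at -0.18 and -0.22 among wild-type cells. On plate 2 of the mutant-labelled cells the list was thus close to all genes.

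Genes of glycolysis, the other supply of ATP, were lower as well, 12 of 16 measured members against 57.6% of all genes with at least 20 UMIs. Their median log2 ratio was -0.55 (-0.83 to -0.15). GAPDHS had a median of 3542 CPM in low and 4282 CPM in high cells and a ratio of 0.75 (0.69 to 0.81). The aldolase gene ALDOC had a ratio of 0.53 (0.41 to 0.68), the enolase gene ENO1 one of 0.56 (0.43 to 0.72) and the pyruvate kinase gene PKM one of 0.37 (0.18 to 0.70). Against the median of all genes the list stood at 0.01 among mutant-labelled and at -0.29 among wild-type cells.

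Along the pvalb8 share these measures did not jump at the threshold alone. Ribosomal protein genes summed to 7.51% of UMIs in the 18 cells under 15% of pvalb8, 6.14% in the 22 cells from 15% to 20%, 4.55% in the 79 from 20% to 25%, 4.48% in the 54 from 25% to 30% and 3.998% in the 9 above. Mitochondrial genome genes ran the other way, 5.204%, 5.78%, 7.52%, 8.31% and 9.78% in the same order, and nuclear oxidative phosphorylation genes took 3.90%, 4.17%, 5.01%, 5.49% and 5.53%. The first and last bins held under 20 cells. The first bin held 14 wild-type and 4 mutant-labelled cells, and 8 of the 9 cells of the last bin came from plate 4. Median UMIs per cell fell over the bins, 6687, 5983, 5522, 4522 and 3394 in the same order. The part of depth in these trends was not tested. Within the low side the Spearman correlation of the pvalb8 share with the ribosomal share was -0.44 over 40 cells, and within the high side -0.13 over 142 cells. These points share plates and genotypes and are given as a description.

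Genes of support cells were higher in low cells, by amounts that came from a minority of them. Of 16 measured members 14 were higher in low cells and 12 at least 1.5-fold higher, and their median log2 ratio was 1.305 (0.75 to 1.71). The shares over all genes with at least 20 UMIs were 42.4% higher and 17.7% at least 1.5-fold higher. krt18b, a keratin of simple epithelia, ran from 0 through a median of 221.6 to 7131 CPM in low cells and from 0 through 200.7 to 1473 CPM in high cells. The medians were nearly alike while the summed ratio was 3.86 (3.12 to 4.77), and single low cells held up to 35 of its 236 low UMIs. cldnb, a tight junction protein, had a ratio of 3.46 (2.67 to 4.5) and krt8, the keratin partner of krt18b, one of 2.57 (2.01 to 3.29). After thinning to 1500 UMIs, krt18b was found in 34.2% of low and 30.5% of high cells and cldnb in 26.3% and 25.5%. krt8 was found in 44.7% of low and 26.95% of high cells and epcam in 84.2% and 73.05%.

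The share of support cell genes in a cell ran from 0.14% through a median of 0.36% to 2.41% in low cells and from 0 through 0.27% to 0.62% in high cells. Thus 13 of 40 low cells exceeded every high cell, while the other low cells overlapped with them. The support cell genes differed in where they were high. SLC1A3, a glutamate transporter of glia and support cells, had a ratio of 9.03 among mutant-labelled and 0.96 among wild-type cells. cldnb and krt8 were higher in the low cells of both genotypes, and krt8 on both plates of each. Among mutant-labelled cells cldnb had a ratio of 0.66 on plate 2, from 6 low and 39 high UMIs, and of 8.49 on plate 4. epcam, a general epithelial adhesion gene, had 1198 CPM in low and 1003 CPM in high cells, a ratio of 1.195 (1.04 to 1.38).

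Notch target genes stood with the support cell genes, while Notch ligands did not. Of 12 measured Notch pathway genes 7 were higher, all by at least 1.5-fold, and these were LFNG, HEY1, her15.1 and 4 her4 genes. Among all genes with at least 20 UMIs, 42.4% were higher and 17.7% at least 1.5-fold higher. The 20 UMIs were counted over both sides, and some members, like her4.4 and LFNG below, reached them mainly through low cells. The count and the fold of such members follow in part from that minimum. her4.2, a transcriptional repressor switched on by Notch, had 172.4 CPM in low and 42 CPM in high cells, a ratio of 4.104 (2.45 to 7.01). her4.5 had a ratio of 4.002 (2.52 to 6.46), her4.1 one of 4.77 (2.04 to 12.06) and her4.4 one of 9.54 (3.48 to 32.5), the last from 20 UMIs in low and 5 in high cells. The Notch modifier LFNG, with 28 and 9 UMIs, had a ratio of 7.42 (3.40 to 17.9) and the target HEY1 one of 4.53 (2.01 to 10.9). FNDC7, a support cell gene, had a ratio of 2.32 (1.39 to 3.85). Without the richest low cell the ratio was 1.43 for FNDC7 and 2.48 for her4.1. Mutant-labelled low cells of plate 4 held 22 of the 28 low UMIs of LFNG. In wild-type cells of plate 2, her4.2 had 3 UMIs in low and 4 in high cells, and her4.5 had 1 on each side. On plate 4 of the wild type her4.2 had 15 and 5 and her4.5 had 12 and 5. LFNG, with 17 of its low UMIs in 1 cell and a ratio of 2.98 without that cell, HEY1, FNDC7 and krt8 are named here after their values were seen.

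The ligand genes gave other values. DLD had 284.6 CPM in low and 300.7 CPM in high cells, a ratio of 0.95 (0.71 to 1.25), and jag2b had 116.2 and 164.6 CPM, a ratio of 0.71 (0.45 to 1.08). After thinning to 1500 UMIs, her4.2 was found in 31.6% of low cells (exact binomial 95% interval 17.5% to 48.6%) and in 7.09% of high cells (3.45% to 12.7%). Members of the her4 cluster are near-identical copies, and how their reads were split between them is not given in the sources used here.

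Epidermal genes were mixed. Of 8 measured members 7 were higher, against 42.4% of all genes with at least 20 UMIs, with a median log2 ratio of 1.23 (0.17 to 1.34). The list summed to 2381 CPM in low and 2154 CPM in high cells. krt5, with the most UMIs of the list, was lower, at 1251 CPM in low and 1638 CPM in high cells, a ratio of 0.76 (0.67 to 0.87). krt4, which is also in the support cell list, had a ratio of 2.56 (1.74 to 3.76). Among mutant-labelled cells the median of the list was -0.20 and among wild-type cells 1.28. The wild-type excess lay on plate 2. Against the median of all genes, wild-type cells stood at 1.62 on plate 2 and at -0.01 on plate 4. Mutant-labelled cells stood at -0.18 and 0.44 in the same order. krt91, a keratin of this list, had 42 of its 63 low UMIs in 1 cell.

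To see which differences rest on the cells rich in these genes, the comparison was repeated without the 16 low and 15 high cells in which support cell and epidermal genes together took over 0.71% of UMIs, the 90th percentile of high cells. The support cell median was then -0.13, which follows in part from the choice of cells. The median of the young hair cell genes was -0.12, of the immediate-early genes -0.32 and of the Notch pathway genes 0.02. Single members differed: her4.5 had a log2 ratio of -1.24 and LFNG one of -0.26, while her4.4 stayed at 2.18, HEY1 at 1.21, her4.1 at 1.15 and krt8 at 1.15. The bundle, synapse and cilium medians were -0.01, -0.08 and -0.17, all above the median of all genes, which was then -0.20. The ribosomal protein median was still 0.46 and the oxidative phosphorylation median -0.29, and the mitochondrial summed ratio was 0.75. Of the 30 genes named by rule below, 22 were still at least 1.5-fold apart on the same side. cbln18 and her4.2 had log2 ratios of 0.05 each and SPARC one of 0.51. PHLDA2, krt18b, si:dkey-205h13.2, si:dkeyp-110c7.4 and si:dkey-4p15.5 were no longer higher in low cells, while ZNF362 kept a log2 ratio of 1.79.

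**Figure D3:**
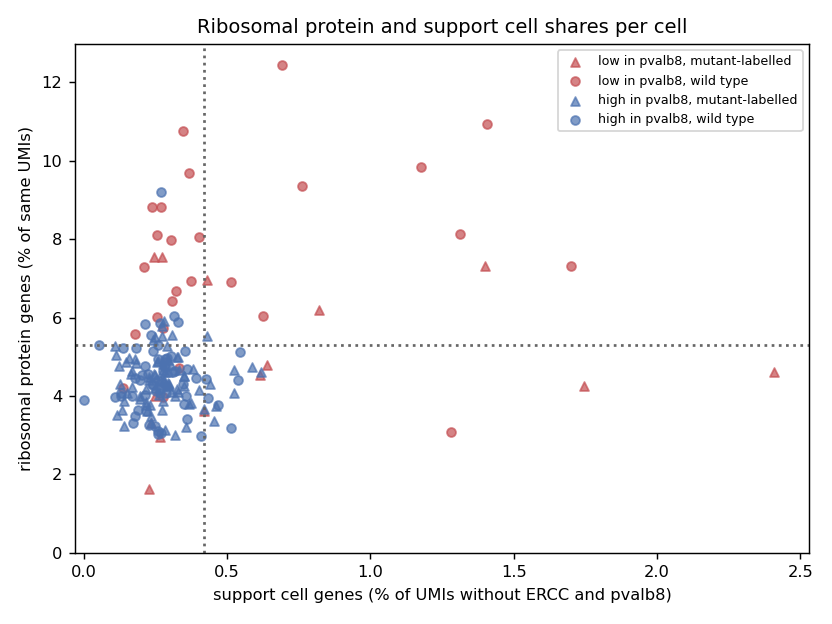
Each point is 1 cell, with the share of support cell genes on the horizontal axis and of ribosomal protein genes on the vertical axis, both in percent of UMIs without spike-ins and pvalb8, and dotted lines at the 90th percentiles of high cells (0.42% and 5.29%). Low cells (red) spread along both axes, and 11 of 40 low cells, against 1 of 142 high cells, lie above both marks.

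Among genes of young hair cells and progenitors 8 of 12 measured members were higher in low cells, all by at least 1.5-fold. The 12 had a median log2 ratio of 0.91 (-0.01 to 1.38). It was 0.098 among mutant-labelled cells (-0.34 on plate 2 and 0.18 on plate 4). Among wild-type cells it was 1.03 (0.94 on plate 2 and 0.27 on plate 4). Against the median of all genes in each genotype these stood at 0.48 and 1.14. Of all genes with at least 20 UMIs, 42.4% were higher and 17.7% at least 1.5-fold higher. her4.2, given above with the Notch pathway genes, is in this list too, so the 2 results are not independent. TUBA1A, an alpha tubulin of young neurons, had a median of 769.3 CPM in low and 401.5 CPM in high cells and a ratio of 1.97 (1.68 to 2.32), and it was found in 68.4% of low and 48.9% of high cells after thinning. HMGB3 (ENSDARG00000056725), a chromatin protein of dividing progenitors, did not differ beyond counting error, at 937.9 CPM in low and 945.8 CPM in high cells. Of 15 cell cycle genes 1 was measured, and the list summed to 653.3 CPM in low and 648.5 CPM in high cells.

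ATOH1, the factor that starts hair cell formation, had 39 UMIs in low and 57 in high cells, a ratio of 1.63 (1.06 to 2.50), but 16 of the 39 lay in 1 wild-type cell and the ratio without it was 0.99. It was 0.48 among mutant-labelled and 2.40 among wild-type cells. The later factor gfi1aa had 364.7 CPM in low and 616.5 CPM in high cells, a ratio of 0.59 (0.46 to 0.75), and six2b one of 0.32 (0.15 to 0.60). POU4F3, which maintains hair cells, had 29 UMIs in low and 66 in high cells, a log2 ratio of 0.07. EYA1 had 456.9 CPM in low and 403.2 CPM in high cells. The list of identity factors held 9 higher and 7 lower of 16, with a median log2 ratio of 0.10 (-0.43 to 0.18). Of all genes with at least 20 UMIs, 42.4% were higher and 57.6% lower. Identity factors thus stood 0.24 above the median of all genes, but at -0.27 among mutant-labelled and 0.36 among wild-type cells.

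Lists of mature hair cell genes lay near or somewhat below the median of all genes. Of 31 measured bundle and mechanotransduction genes 19 were lower, close to the 57.6% of all genes that were, and 11 were at least 1.5-fold lower, against 27% of all genes with at least 20 UMIs. The median log2 ratio was -0.25 (-0.59 to 0.06), 0.11 below the median of all genes. CALML4, a calmodulin-like protein, had a median of 511.9 CPM in low and 1082 CPM in high cells and a ratio of 0.54 (0.46 to 0.64). TOMT, which carries transduction channel proteins to the bundle, had a ratio of 0.39 (0.18 to 0.73). GIPC3 had 1122 CPM in low and 1218 CPM in high cells and TWF2 (ENSDARG00000009727), an actin-capping protein, 845.7 and 1072 CPM. No member of the list was higher in all 4 combinations of genotype and plate, where 4.24% of all genes with at least 20 UMIs were. Lower in all 4 were 6, against 13.4% of such genes and 20% of those with at least 100 UMIs.

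Of 24 measured synapse and excitability genes 17 were lower, where 57.6% of all genes were. Their median log2 ratio was -0.20 (-0.37 to -0.02), 0.05 below the median of all genes. Against that median it stood at 0.12 among mutant-labelled and at -0.04 among wild-type cells, and at a pvalb8 threshold of 25% the list median was 0.13. OTOF (ENSDARG00000020581), the calcium sensor of glutamate release, had a median of 1849 CPM in low and 1955 CPM in high cells and a ratio of 0.94 (0.85 to 1.04). A second OTOF gene (ENSDARG00000030832) had 70 UMIs in low and 94 in high cells, and was found in 45% of low and 32.4% of high cells. cabp2b, a calcium-binding modulator of synaptic calcium channels, had a ratio of 0.77 (0.69 to 0.86), and the sodium pump subunit ATP1B1 (ENSDARG00000013144) one of 0.57 (0.49 to 0.67). PCLO, a scaffold of the active zone, went the other way, at 120.2 CPM in low and 63.8 CPM in high cells, a ratio of 1.88 (1.13 to 3.12).

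Of 18 other calcium-binding and calcium pump genes 11 were lower, near the 57.6% of all genes, with a median log2 ratio of -0.22 (-0.35 to 0.13). In all 4 combinations of genotype and plate 6 were lower, against 13.4% of all genes with at least 20 UMIs and 20% of those with at least 100. s100t, the next most abundant transcript, ran from 22530 through a median of 47730 to 96440 CPM in low cells and from 26540 through 52470 to 108200 CPM in high cells, and the ranges overlapped almost wholly. Its ratio was 0.95 (0.93 to 0.97), a log2 ratio of -0.07, which was 0.09 when pvalb8 stayed in the totals. s100s had a ratio of 0.78 (0.73 to 0.84) and anxa5a one of 0.73 (0.67 to 0.80). The parvalbumin gene pvalb9 was higher, at 140.3 CPM in low and 75.6 CPM in high cells, a ratio of 1.86 (1.16 to 2.95). CALR, a calcium-binding chaperone of the endoplasmic reticulum, had a ratio of 1.90 (1.34 to 2.68). ANXA4 had one of 1.95 (1.54 to 2.45), which was 1.201 without the richest low cell, with a log2 ratio of -0.19 among mutant-labelled and 1.14 among wild-type cells.

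Cilium genes, which serve the kinocilium, were lower in 42 of 58 measured members, where 57.6% of all genes with at least 20 UMIs were. Their median log2 ratio was -0.34 (-0.45 to -0.19), 0.19 below the median of all genes. TEKT3, a tektin of ciliary microtubules, had a median of 388.7 CPM in low and 716.1 CPM in high cells and a ratio of 0.47 (0.38 to 0.58), and MEIG1 one of 0.62 (0.52 to 0.74). cfap126, a ciliary basal body protein, had a ratio of 0.53 (0.33 to 0.81). tubb4b and dynll1, which also serve the general cytoskeleton, had 1038 and 877.8 CPM in low cells and 915.6 and 796.3 CPM in high cells. Within each genotype the median stood 0.03 and 0.04 below that of all genes, among mutant-labelled and wild-type cells in that order.

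**Figure D4:**
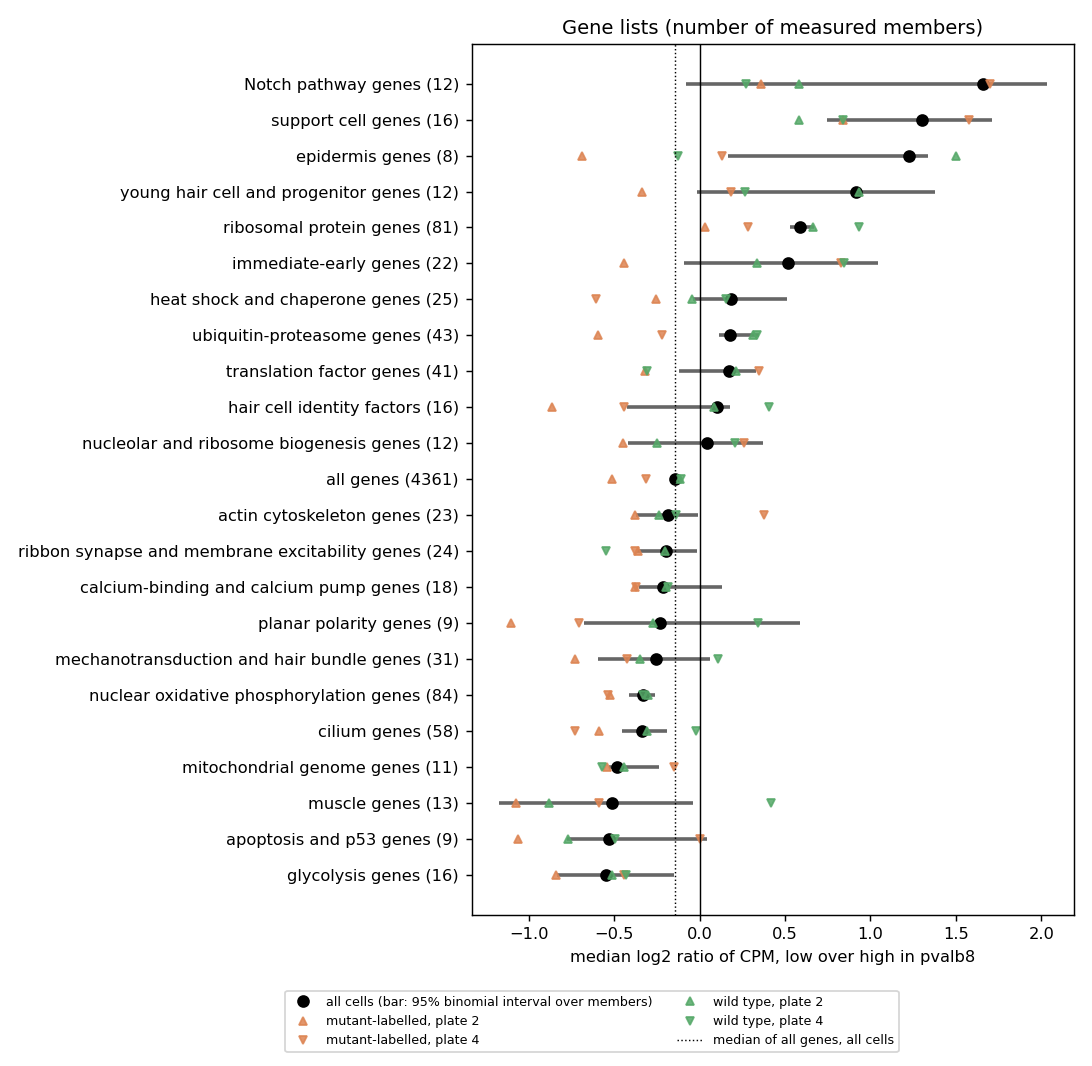
The horizontal axis gives the median log2 ratio of CPM, low over high in pvalb8, for each list, with the number of measured members in brackets. Black points and bars are the value over all cells and its 95% binomial interval, small symbols are the 4 combinations of genotype and plate, the dotted line is the median of all genes, and the ribosomal protein symbols run from 0.03 in mutant-labelled cells of plate 2 to 0.93 in wild-type cells of plate 4.

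Stress genes were mixed. Of 25 measured heat shock and chaperone genes 16 were higher, against 42.4% of all genes, with a median log2 ratio of 0.19 (-0.04 to 0.51). HSPA8 had 3158 CPM in low and 3583 CPM in high cells and the inducible hsp70.1 1102 and 1378 CPM. Of 22 measured immediate-early genes 15 were higher, against 42.4% of all genes, and 11 at least 1.5-fold higher, against 17.7%. Their median was 0.52 (-0.09 to 1.04), and -0.32 without the cells rich in support cell and epidermal genes. JUN had 2084 CPM in low and 2221 CPM in high cells. SOCS3 (ENSDARG00000025428), a brake on cytokine signalling, had a ratio of 3.42 (2.20 to 5.35), ZFP36L1, which promotes mRNA decay, one of 3.08 (1.97 to 4.83) and BTG1, which slows cell division, one of 2.66 (1.85 to 3.84). The survival gene mcl1a had a ratio of 0.69 (0.59 to 0.82). Apoptosis and p53 genes had 6 of 9 measured members lower, with a median of -0.53 (-0.78 to 0.04). Actin cytoskeleton genes had 16 of 23 lower and a median of -0.18 (-0.37 to -0.01), and planar polarity genes 5 of 9 and a median of -0.23 (-0.68 to 0.59). Beside the lower counts of these lists, 57.6% of all genes with at least 20 UMIs were lower.

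Across all genes, 74 passed a rule for higher and 95 a rule for lower transcripts in low cells. Both rules asked for a 1.5-fold ratio, also without the richest cell, and the same side in all 4 combinations of genotype and plate. Both also set a minimum of cells and of UMIs. The UMI minimum was 30 in low cells for higher genes and 100 in high cells for lower genes. The counts of 74 and 95 thus cannot be set against each other, and the number of genes that met each minimum is not given. The 15 on each side whose counting intervals lay furthest from 1 are named or counted here. This rank rests on counting error alone and does not measure how alike the cells of a side were. Of the 15 higher in low cells 6 have no symbol. cbln18, a secreted protein of the cerebellin family, had 75 UMIs in 18 of 40 low cells and 29 UMIs in 25 of 142 high cells, a ratio of 6.17 (3.97 to 9.83), and a log2 ratio of 0.05 without the cells rich in support cell and epidermal genes. After thinning it was found in 31.6% of low and 7.09% of high cells. SPARC, a secreted protein of the extracellular matrix, had a ratio of 5.04 (3.13 to 8.28), from 11 low and 23 high cells with a UMI, and PHLDA2 one of 3.50 (2.51 to 4.92).

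ZNF362, a zinc finger gene, had a median of 424.4 CPM in low and 162.4 CPM in high cells and a ratio of 3.50 (2.85 to 4.31). Its ratio was 4.197 among mutant-labelled and 3.52 among wild-type cells, and after thinning it was found in 52.6% of low and 24.1% of high cells. The uncharacterized genes si:dkey-205h13.2, si:dkeyp-110c7.4 and si:dkey-4p15.5 had ratios of 3.21 (2.91 to 3.54), 3.04 (2.62 to 3.53) and 2.72 (2.42 to 3.05), with medians nearly alike on both sides. For si:dkey-205h13.2 these medians were 1137 CPM in low and 1225 CPM in high cells, and the highest low cell had 30800 CPM. ENSDARG00000117174 had a ratio of 3.28 (3.05 to 3.54), with 742 of its 1703 low UMIs in 1 cell and a ratio of 1.97 without that cell. krt18b and her4.2, described above, complete the named genes higher in low cells.

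Of the 15 genes taken by the same rank as lower in low cells 13 have a symbol. wu:fj16a03 ran from 461.5 through a median of 2492 to 6728 CPM in low cells and from 947.9 through 5127 to 23010 CPM in high cells, and every cell had a UMI. Its ratio was 0.41 (0.38 to 0.44), and it was 0.40 among mutant-labelled and 0.47 among wild-type cells. BHLHE40, a circadian and stress-linked repressor, had a ratio of 0.29 (0.16 to 0.49), and zgc:195356 one of 0.29 (0.17 to 0.47). After thinning BHLHE40 was found in 5.26% of low cells (exact binomial 95% interval 0.64% to 17.8%) and in 21.99% of high cells (15.4% to 29.7%).

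Several others tie to the cytoskeleton or to signalling. odf3l2a, of a family first known from outer dense fibres of sperm tails, had a ratio of 0.44 (0.35 to 0.54), and NDEL1, a dynein regulator, one of 0.36 (0.20 to 0.60). FGF10, a secreted growth factor, had a ratio of 0.49 (0.39 to 0.61) and rtn4rl2b, a Nogo receptor-like gene, one of 0.51 (0.43 to 0.61). TTC7A, RNF185, an endoplasmic reticulum ubiquitin ligase, and WDR75, a factor of ribosome assembly, had ratios of 0.37 (0.21 to 0.60), 0.44 (0.31 to 0.62) and 0.47 (0.34 to 0.63). si:dkey-11c5.11 had one of 0.50 (0.44 to 0.57), and TEKT3 and MT-CO1, given above, belong to the same set.

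**Figure D5:**
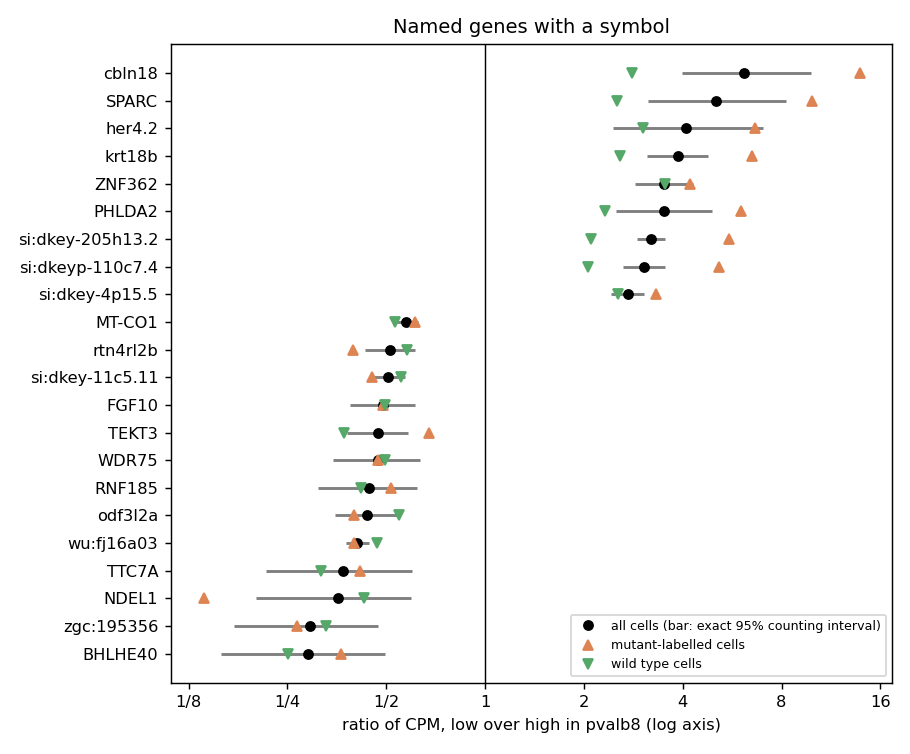
Points give the ratio of CPM, low over high in pvalb8, on a log axis for the named genes that have a symbol, with bars for the exact 95% counting interval over all cells and triangles for mutant-labelled and wild-type cells alone. For the 9 genes higher in low cells the mutant-labelled value is the larger, from cbln18 (13.8 and 2.80) to ZNF362 (4.197 and 3.52).

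The reporter and EMX2 gave other values in each genotype. GFP, which marks the sorted cells, ran from 0 through a median of 934.1 to 4751 CPM in low cells and from 0 through 592.1 to 2947 CPM in high cells, a ratio of 1.58 (1.35 to 1.83). It had 623.9 CPM in low and 700.8 CPM in high cells among mutant-labelled cells, and 1417 CPM in low and 786.2 CPM in high cells among wild-type cells. The wild-type ratio was 1.44 on plate 2 and 2.77 on plate 4, the mutant-labelled ratio 1.07 and 0.58, and the difference between the genotypes was not tested. EMX2 had 149.7 CPM in low and 273.9 CPM in high cells among mutant-labelled cells, a ratio of 0.55 (0.27 to 1.001), and 112.2 and 101.7 CPM among wild-type cells, a ratio of 1.103 (0.58 to 2.07). DLD had a ratio of 0.57 (0.31 to 0.98) among mutant-labelled and 1.26 (0.87 to 1.83) in the wild type, but the plates of each genotype stood on opposite sides of 1.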

How the data were processed

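Cells were sorted singly and sequenced by mcSCRB-seq, a plate-based 3′ method, per the labels. The authors deposited a table of raw UMI counts, not normalized, for 12354 Ensembl genes, 54 ERCC spike-ins and GFP. Reads were aligned with STAR 2.6.0a to GRCz11, per the submitters' processing notes. Which tool counted the UMIs, and on which annotation, is not stated in the labels. The plate was read from the first digit of the well code in the titles, and the labels do not say in words that this digit is a plate. A symbol table named 11707 gene IDs, often in human style, and 647 IDs have no symbol. No genome was used, so sequences and coordinates are not given.

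The members, lists, markers and rules were chosen with earlier results of these data known, and lists overlap. Cells under 1000 UMIs (2 wild-type cells on plate 4) were left out, no doublets were called, and all 184 barcodes are distinct. UMIs were summed per side. Ratios are low over high with exact conditional (Clopper-Pearson) intervals, and log2 ratios used a prior of 2 UMIs split by library size. All intervals are at 95%. List members needed 20 UMIs over both sides, and calls 100 UMIs. Each genotype is 1 sample with no replicate, so no p-values are given.

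Named genes were at least 1.5-fold apart, with at least 30 UMIs in low or 100 in high cells on the higher side, UMIs in no fewer than 25% of the cells there, the same side in each genotype and plate, and 1.5-fold without the richest cell. At most 15 a side were taken, by the interval bound nearest to 1. Each list could add its 3 most abundant members and the 3 that differed most (50 UMIs or more), with GFP, EMX2, DLD, ATOH1 and her4 genes. The ratio step was tested on simulated data. Alternatives included scaling of the 2 summed libraries with TMM (edgeR 4.0.16, R 4.3.3) or by the size factors of DESeq2 1.42.0. Scripts ran in Python 3.11.15 with pandas 2.3.3, scipy 1.17.1, matplotlib 3.10.9 and numpy 2.4.6.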

Additional observations from a re-analysis of the deposited data

Results flagged for a closer look

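The values below stood on opposite sides of 0 in the 2 genotypes, with both plates of each genotype on the same side. The difference between the genotypes was not tested in any of them. The median log2 ratio of low over high for hair cell identity factors was -0.65 among mutant-labelled and 0.25 among wild-type cells, and for ubiquitin-proteasome genes it was -0.30 and 0.34. Against the median of all genes in each genotype the identity factors stood at -0.27 and 0.36, and the ubiquitin-proteasome genes at 0.08 and 0.46, on the same side in both. The median of all genes was -0.38 among mutant-labelled and -0.11 among wild-type cells. The log2 ratio of RPS2 was -0.19 among mutant-labelled and 0.55 among wild-type cells, above that median in both. GIPC3 had -0.64 among mutant-labelled and 0.12 among wild-type cells. OTOF had 0.15 among mutant-labelled and -0.24 among wild-type cells. ANXA4 had -0.19 among mutant-labelled and 1.14 among wild-type cells, with 53 of its 137 low UMIs in 1 cell. It too lay above the median of all genes in both genotypes. JUN had -0.59 among mutant-labelled and 0.065 among wild-type cells. ATOH1 had -0.98 among mutant-labelled cells, where the low side held 4 UMIs, and 1.22 among wild-type cells. EMX2 had -0.85 among mutant-labelled and 0.14 among wild-type cells.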

How the results depend on the processing

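No paired analysis was possible because each sample is 1 cell and the labels give no replicate numbers. The genes at least 1.5-fold higher or lower were 133 and 209. The counts past the fold were 56 and 40 at 2-fold, 277 and 474 with a gene minimum of 50 in place of 100 UMIs, and 3512 and 4925 with none. The lower count was 396 in mutant-labelled cells alone, 118 with pvalb8 kept in the totals and 104 at a pvalb8 threshold of 25%. The higher count was 207 on plate 4 alone. Of the genes past the fold 38.9% were higher in low cells, and 52.3% at a threshold of 25%, 61.9% with pvalb8 kept and 25.6% in mutant-labelled cells alone. The 1.5-fold rule for the 30 named genes asked for the same side in every genotype and plate. That they kept their side in each genotype or plate alone was thus largely fixed by the rule. In the other settings they kept their side too, with SPARC at a threshold of 15% as an exception. The other exceptions were the 5 below, without cells rich in support cell and epidermal UMIs. Past 1.5-fold on that side were 22 of 30 without those cells, with cbln18 and her4.2 at 0.05, and 22 of 30 at a threshold of 25%.

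The ribosomal protein median, 0.59, was 0.31 at a threshold of 25%, 0.75 with pvalb8 kept, 0.15 for mutant-labelled and 0.76 for wild-type cells alone, 0.52 for plate 2, 0.79 for plate 4, 0.67 without the low cell richest in genes without a symbol, and 0.46 without cells rich in support cell and epidermal UMIs. The oxidative phosphorylation median, -0.33, was -0.18 at 25%, -0.16 with pvalb8 kept, -0.57 in mutant-labelled cells and -0.26 with rRNA rows and genes without a symbol left out of the totals. The mitochondrial summed ratio, 0.70, was 0.68 with at least 3000 UMIs per cell, 0.75 without cells rich in support cell and epidermal UMIs, 0.72 without the deepest cells, 0.78 as a mean of per-cell CPM, 0.74 for mutant-labelled and 0.69 for wild-type cells alone, 0.69 for plate 2, 0.74 for plate 4, 0.79 with pvalb8 kept, 0.79 at 25%, 0.74 without rRNA rows and genes without a symbol, and 0.76 thinned. The support cell median, 1.305, was 0.55 at 15%, 0.57 at 25% and 0.69 in wild-type cells. The young hair cell median, 0.91, was -0.12 without cells rich in support cell and epidermal UMIs. The bundle median was -0.60 in mutant-labelled cells. The synapse median, -0.20, was -0.44 at 15%, 0.13 at 25% and -0.46 on plate 4.

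Values whose main interval held 0 also changed sign in places and are not all given. Among them, without the cells rich in support cell and epidermal UMIs, the immediate-early median was -0.32, the identity factor median -0.07, OTOF 0.15 and tubb4b -0.08. In mutant-labelled cells alone the identity factor median was -0.65, EYA1 -0.79 and POU4F3 -0.23. Log2 values whose main interval excluded 0 and that changed sign without the cells rich in support cell and epidermal UMIs were the medians of support cell (-0.13) and epidermis genes (-0.10), ATOH1 -0.80, FNDC7 -1.88, LFNG -0.26, PHLDA2 -1.32, SLC1A3 -0.060, cldnb -0.12, epcam -0.35, her4.5 -1.24, krt18b -0.38, krt4 -0.13, s100t 0.039, si:dkey-205h13.2 -0.064, si:dkey-4p15.5 -0.26 and si:dkeyp-110c7.4 -0.57. In mutant-labelled cells alone they were ANXA4 -0.19, ATOH1 -0.98, GFP -0.17, RPS2 -0.19, epidermis genes -0.20 and ubiquitin-proteasome genes -0.30. In wild-type cells alone they were EMX2 0.14, SLC1A3 -0.055 and s100t 0.084. On plate 2 epcam was -0.21, and on plate 4 her4.1 was -1.63, s100t 0.019 and actin cytoskeleton genes 0.11. With pvalb8 kept s100t was 0.091. At 15% FNDC7 was -0.30, LFNG -0.67, SPARC -0.10 and epidermis genes -0.64. At 25% ATOH1 was -0.10, HSPA8 0.076, epcam -0.055 and actin cytoskeleton genes 0.057. The cause of these changes was not tested. The cells rich in support cell and epidermal UMIs were picked by those genes, whose sign changes without them follow in part from that choice. Leaving out cells rich in support cell and epidermal UMIs, rRNA rows and genes without a symbol, or the cell richest in the latter was chosen after seeing the data. TMM or DESeq2 factors, the prior, the spike-in limit, totals without mitochondrial and ribosomal protein genes, no UMI minimum and pooling within genotype and plate moved none of the values above past these limits.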
